A study of Mus musculus with 6 samples.

Results

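Receptors of innate recognition were examined in splenic CD3+ T cell isolates of mice after haematopoietic stem cell transplantation (HSCT). Members were chosen by symbol from the deposited expression table: Toll-like receptors, numbered C-type lectins, NLRP sensors, Siglecs, Fcgr genes, Pirb and Lilr genes, TREM genes, CD300 genes and numbered formyl peptide receptors, without Clec10a, Siglech and Treml1. This gave 62 of the 8468 genes of the table. The allo-HSCT group (3 libraries) came from Balb/c hosts given C57BL/6 donor cells, the setting of graft-versus-host disease, and the syn-HSCT group (3 libraries) from Balb/c hosts given Balb/c cells. Both groups are CD3+ cells of transplanted Balb/c spleens, isolated with a kit, so neither is an untransplanted control. Every allo-HSCT library has another donor strain than every syn-HSCT library, and effects of strain and of transplant cannot be told apart. Whether the 3 libraries of a group are different mice is not in the labels, and the p-values cover only their spread, which may be technical.

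Toll-like receptors detect microbial lipids, proteins and nucleic acids at the cell surface or in endosomes, and NLRP proteins sense danger in the cytosol and can assemble inflammasomes, which activate caspase-1. C-type lectins bind sugars and other ligands of microbes and dying cells, and Fc gamma receptors bind IgG on immune complexes. Many of these receptors signal through ITAMs, activating tyrosine motifs of the tail or of adaptor proteins such as DAP12 and the Fc receptor gamma chain. Others carry ITIMs, inhibitory tyrosine motifs that recruit phosphatases. In the spleen most of them are best known from monocytes, macrophages, granulocytes, dendritic cells and B cells, and few are typical of T cells.

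Most of these receptor genes were lower in allo-HSCT. Of the 62, 47 reached 1 FPKM (reads divided by gene length and by the library's total) in at least 3 libraries and were tested with limma on log2(FPKM + 1). At a limma adjusted p under 0.05, 39 were lower and 7 higher in allo-HSCT, where 45.8% of all 5460 tested genes were lower and 47.9% higher. Beyond a log2 difference of 1 in size, 21 were lower and 0 higher, where 7.91% and 3.74% of all tested genes were. The median log2 difference of the tested receptor genes was -0.87, beside 0.2 over all tested genes. With no filter on low values, over all 62 members, it was -0.558, beside 0.02 over all genes of the table. Clec9a was the 1 tested gene that did not pass. Of the 47, 8 reached 1 FPKM in libraries of 1 group only and had to differ (Cd300lg, Cd300lb, Cd300ld, Cd300c, Nlrp1b and Trem2 in syn-HSCT, Tlr3 and Tlr11 in allo-HSCT). Without them 33 of 39 were lower and 5 higher. Among the 47, the groups did not overlap in 36 genes lower in allo-HSCT and 7 higher, where 44.8% and 46.2% of all tested genes did so. The 8 genes that had to differ are all in these counts of 36 and 7. Of them, Cd300lg, Cd300lb, Cd300c, Nlrp1b and Trem2 are also in the 21 beyond a log2 difference of 1. Over all 62 members the groups did not overlap in 41 genes lower in allo-HSCT and 10 higher, where the whole table has 38.9% and 37.6%. The summed level of the 62 genes was 401 ± 53.7 FPKM in allo-HSCT and 799 ± 33.7 FPKM in syn-HSCT (SD, n = 3 each).

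**Figure D1:**
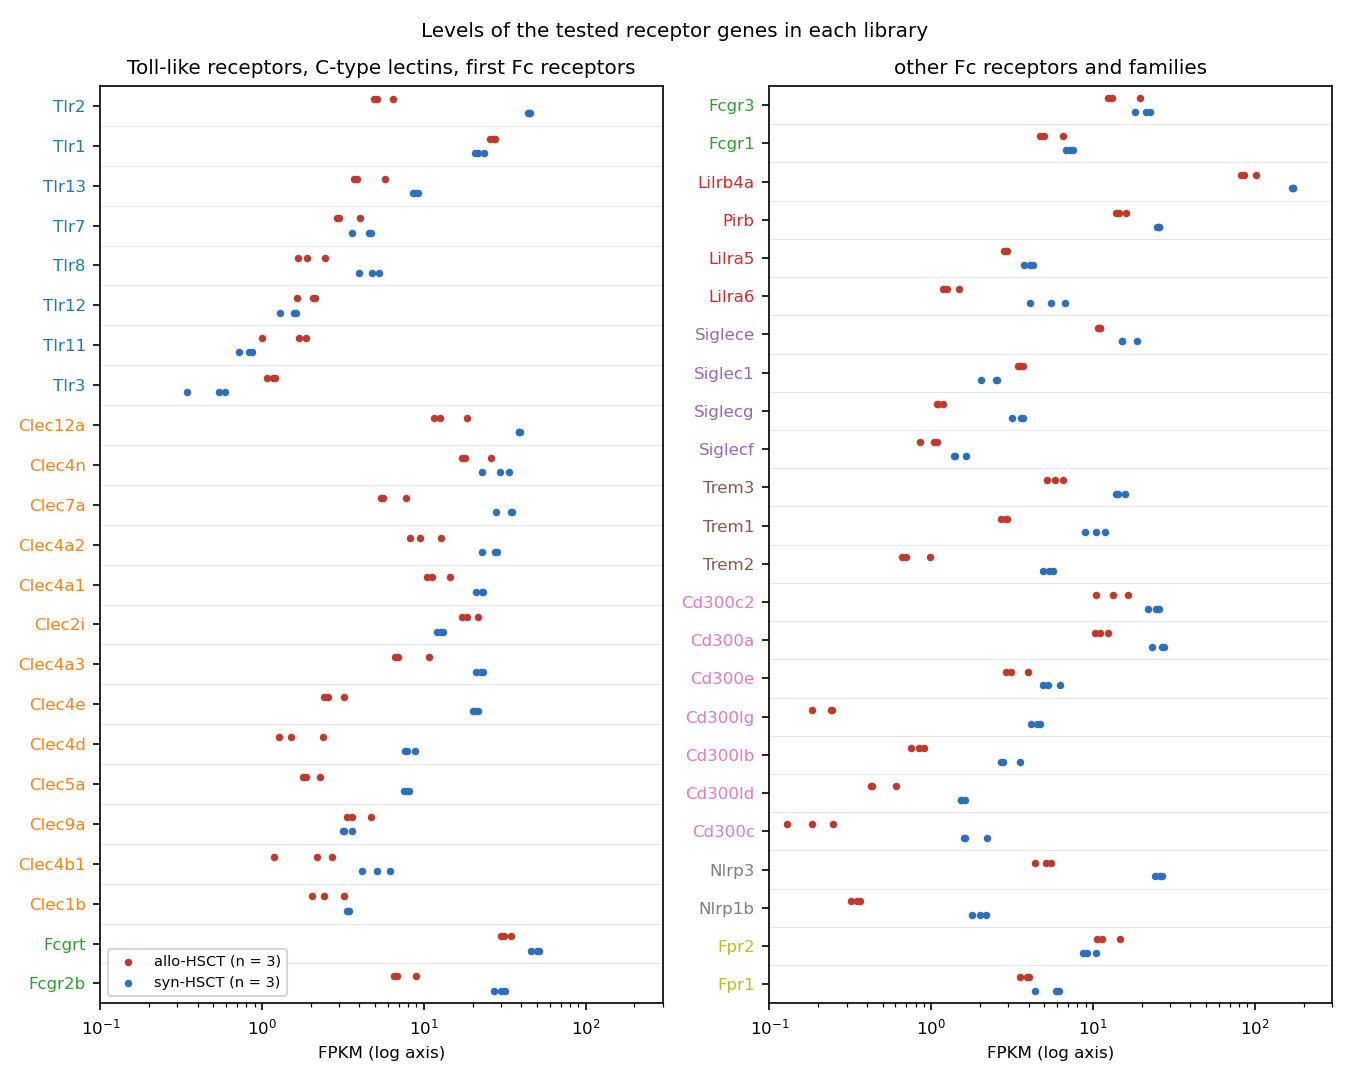
Level of each tested receptor gene in FPKM on a log axis, 1 point per library, with 3 allo-HSCT libraries (red) above 3 syn-HSCT libraries (blue) in each row; label colours mark families. Red points lie left of blue ones in most rows, and right of them in Tlr1, Tlr3, Tlr11, Tlr12, Clec2i, Siglec1 and Fpr2.

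**Figure D2:**
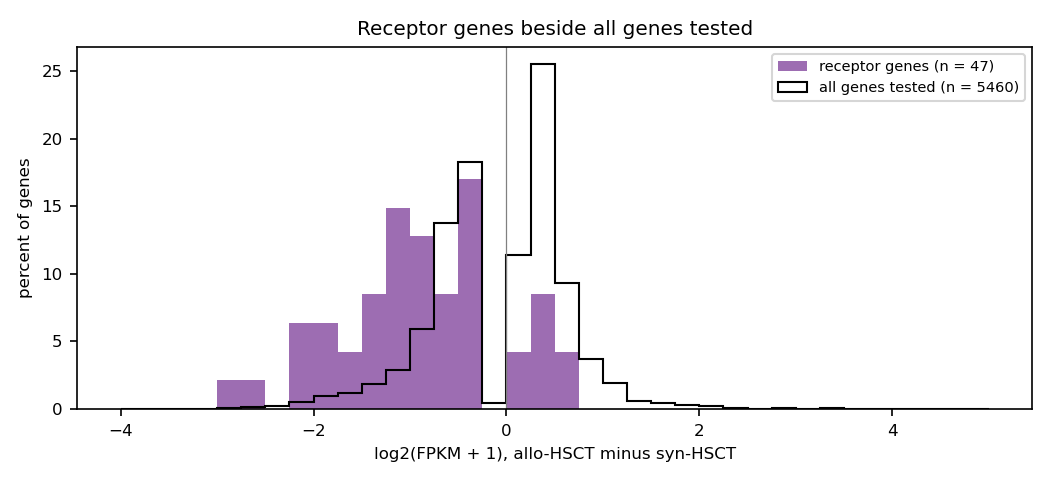
Share of genes in each bin of 0.25 of the log2 difference, allo-HSCT minus syn-HSCT, for the 47 tested receptor genes (filled) and all 5460 tested genes (line). The receptor genes reach -2.82 on the low side and stop at 0.56 on the high side, and the dip beside 0 is a property of the deposited table.

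The whole table limits what these counts mean. Among its 3595 genes averaging at least 5 FPKM, none had a log2 ratio of mean FPKM, allo-HSCT over syn-HSCT, between -0.37 and 0.21. Of all tested genes, 93.7% were called in either direction. Such a table holds few genes without a difference, so a call or a small adjusted p-value adds little to a gene's presence in it. Whether genes were selected before deposit is not given in the sources used here. Receptor genes outside the table (Tlr4, Tlr6, Tlr9 and Fcgr4 among them) are not analysed here, and their absence does not show that they were unexpressed. Library totals, recovered from the values, were 16330845 to 17143498 reads in allo-HSCT and 15642385 to 17524496 reads in syn-HSCT. The tested receptor genes had 94 to 19920 reads each over all 6 libraries, with a median of 1868. Reads of a gene are the smallest whole numbers that fit its 6 values, so those of rarely read genes may be too small by a common factor.

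The isolates held T cell transcripts and also those of other cells, and both moved with the groups. All 14 T cell markers, such as Cd3e, rose in allo-HSCT, with a summed level of 2534 to 2619.8 FPKM there and 1474 to 1580.2 FPKM in syn-HSCT. Of 16 monocyte and macrophage markers 9 were in the table, 7 lower and 1 (Ly6c2) higher, and their sum was 617 to 869.8 FPKM in allo-HSCT and 1903 to 2501 FPKM in syn-HSCT. Most of the fall of this sum was Lyz2 (mean 217 FPKM in allo-HSCT, 1634 FPKM in syn-HSCT), while Ly6c2 had 261 and 168 FPKM. Of 16 markers of neutrophils and their precursors 12 were present, 6 lower and 6 higher. Mpo, Elane, Prtn3, Ctsg, Csf3r and Ly6g were lower, and Ltf, Lcn2, Ngp, Mmp9, Retnlg and Cxcr2 higher. The sum of the 12 was 864 to 1002 FPKM in allo-HSCT and 1676 to 1698 FPKM in syn-HSCT. Mpo (mean 88 FPKM in allo-HSCT, 512 FPKM in syn-HSCT) and Prtn3 (63.9 and 418 FPKM) weighed most in its fall. Of 12 dendritic cell markers 11 were present, 7 lower and 2 higher, with sums of 113 to 116 FPKM in allo-HSCT and 214 to 217 FPKM in syn-HSCT. Of these markers, Siglech, Cd209a and Tcf4 reached 1 FPKM in syn-HSCT only and Xcr1 in allo-HSCT only, so they had to differ. Most of each sum was Irf8 (mean 41.1 FPKM in allo-HSCT, 82 FPKM in syn-HSCT) and Bst2 (56 and 100.4 FPKM). Of 10 B cell markers 8 were present, 2 lower and 3 higher, with sums of 18.3 to 19.5 FPKM in allo-HSCT and 12.1 to 13.6 FPKM in syn-HSCT. Of 9 NK cell markers 8 were present, 3 lower (Ncr1, Klre1 and Eomes) and 5 higher (Klrb1c, Klrk1, Klrd1, Nkg7 and Gzma). Their sums were 562 to 712 FPKM in allo-HSCT and 418 to 422 FPKM in syn-HSCT. Most of each sum was Nkg7 (mean 338 FPKM in allo-HSCT, 175 FPKM in syn-HSCT) and Gzma (215 and 161 FPKM). Ncr1 was 3.58-fold, Klre1 2.83-fold and Eomes 1.74-fold lower. Of 7 mast cell and basophil markers 6 were present, 4 lower and 1 higher, with sums of 68 to 95.9 FPKM in allo-HSCT and 84.5 to 91.5 FPKM in syn-HSCT. Beside these counts, 45.8% of all tested genes were lower and 47.9% higher, near the even split of the neutrophil list. No marker of these lists that the table holds was at 0 in any library. The part of these cells in the receptor differences was not tested, and fewer cells of a type and less RNA per cell cannot be told apart in such isolates.

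In most receptor genes, replicate 1 was the allo-HSCT library nearest to syn-HSCT. It had the highest allo-HSCT level in 39 of the 47 tested receptor genes, where this held for 39.7% of all tested genes, and its log2 values lay above the mean of the other 2 by a median of 0.27. Among the 39, replicate 1 lay farthest from syn-HSCT in Clec2i, Tlr11, Fpr2 and Clec9a, whose allo-HSCT means were the higher ones. Its median shift was 0.4 in the mast cell and basophil list, 0.35 in the monocyte and macrophage list, 0.31 in the NK cell list, 0.14 in the dendritic cell list and 0.08 in the neutrophil list. It was -0.02 in the T cell list and over all genes, -0.06 in the B cell list and -0.09 in the platelet list. Without it, 39 receptor genes were again lower and 7 higher, and their median log2 difference was -1.02.

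Stretches of promoter are shown for 5 receptor genes that fell and for Tlr1, which rose, as examples of either direction. The 6 motifs and the genes shown were chosen after levels and matches had been seen. RefSeq promoters (GRCm38.p6) matched 51 of the 62 genes. Each stretch is the last 180 bases before the annotated start, read 5′ to 3′ on the strand of the gene, with capitals marking the letters of a searched motif on either strand. Where RefSeq lists more than 1 start, as for Clec7a, Nlrp3 and Tlr1, the first listed was used.
Tlr2 (chr3:83841609-83841788, minus strand): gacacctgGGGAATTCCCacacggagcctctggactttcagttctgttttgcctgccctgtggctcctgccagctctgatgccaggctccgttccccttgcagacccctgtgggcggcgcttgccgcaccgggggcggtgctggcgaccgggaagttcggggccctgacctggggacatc
Clec4e (chr6:123289872-123290051, minus strand): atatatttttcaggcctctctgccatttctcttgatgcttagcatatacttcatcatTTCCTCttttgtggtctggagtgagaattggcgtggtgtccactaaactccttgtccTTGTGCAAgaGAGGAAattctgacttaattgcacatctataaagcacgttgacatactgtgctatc
Clec7a (chr6:129472780-129472959, minus strand): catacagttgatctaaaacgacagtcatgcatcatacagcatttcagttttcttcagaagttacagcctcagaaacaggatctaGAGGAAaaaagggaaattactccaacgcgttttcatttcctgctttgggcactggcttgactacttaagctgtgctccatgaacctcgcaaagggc
Nlrp3 (chr11:59542506-59542685, plus strand): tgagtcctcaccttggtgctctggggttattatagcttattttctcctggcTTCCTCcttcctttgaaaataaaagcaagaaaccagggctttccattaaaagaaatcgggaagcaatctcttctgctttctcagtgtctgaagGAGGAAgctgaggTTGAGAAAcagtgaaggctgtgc
Trem1 (chr17:48232559-48232738, plus strand): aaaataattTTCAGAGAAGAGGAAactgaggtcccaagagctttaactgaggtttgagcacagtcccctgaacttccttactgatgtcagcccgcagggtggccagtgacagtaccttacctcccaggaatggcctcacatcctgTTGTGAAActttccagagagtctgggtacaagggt
Tlr1 (chr5:64933559-64933738, minus strand): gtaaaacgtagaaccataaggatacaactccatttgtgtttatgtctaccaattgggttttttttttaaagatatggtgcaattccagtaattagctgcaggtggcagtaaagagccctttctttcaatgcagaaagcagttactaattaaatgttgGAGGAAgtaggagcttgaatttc

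Motifs were searched on both strands in the 250 bases before each start. The core letters GAGGAA, bound by PU.1, a transcription factor of myeloid and B cells, were present in 24 of 34 promoters of genes that fell (70.6%) and in 3 of 6 of those that rose. They were present in 62.7% of the 51 receptor promoters whatever the call, in 23.4% of 6659 promoters of genes of the whole table and in 23.1% of all 27025 promoters. The promoters of genes that fell include those of Nlrp1b, Trem2, Cd300lb, Cd300ld and Cd300c. Those of genes that rose include Tlr3 and Tlr11, and all of these genes had to differ. The letters TTNNGNAA of C/EBP factors, which act in myeloid differentiation, stood in 21 of 34 promoters of genes that fell (61.8%) and in 4 of 6 of those that rose (66.7%). The C/EBP letters stood in 58.8% of the 51 receptor promoters, in 30.5% of the table's promoters and in 36.9% of all promoters. In the Clec4e promoter a C/EBP match began 66 bases and a GAGGAA match 56 bases before the start. In the Tlr1 promoter a GAGGAA match began 23 bases before the start. The kappaB motif bound by NF-kB (GGG, any 2 bases, TT, any base, CC) stood in 3 of 34 promoters of genes that fell (8.82%). It stood in 1 of 6 of those that rose (16.7%) and in 4.63% of the table's promoters, and the Tlr2 match began 172 bases before the start. The AP-1 letters TGANTCA stood in 2 of 34 (5.88%), in 0 of 6 of those that rose and in 4.99% of the table's promoters. The IRF motif (GAAA, any 2 bases, GAAA) stood in 2 of 34 (5.88%), in 1 of 6 that rose (16.7%) and in 2.87% of the table's. The GAS letters TTCNNNGAA of STAT factors stood in 6 of 34 (17.6%), in 1 of 6 that rose (16.7%) and in 6.32% of the table's. In Trem1 a GAS match, which began 171 bases before the start, directly adjoins a GAGGAA match at 162 bases. The Fcgr2b promoter held none of the 6 motifs, and that of Clec2i only the C/EBP letters. These are letter matches and no measured binding.

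Of 8 tested Toll-like receptors, 4 were lower (Tlr2, Tlr7, Tlr8 and Tlr13) and 4 higher (Tlr1, Tlr3, Tlr11 and Tlr12), a split near that of all tested genes (45.8% lower and 47.9% higher). Tlr3 and Tlr11 reached 1 FPKM in allo-HSCT only and had to differ. Tlr2, the receptor of bacterial lipoproteins, had 6.44, 4.91 and 5.12 FPKM in allo-HSCT, against 45.6, 44.5 and 43.8 FPKM in syn-HSCT. Every allo-HSCT library lay far below every syn-HSCT library. Tlr2 was 8.13-fold lower (log2 difference -2.82, SE 0.0947, limma adjusted p = 2.25e-08). Tlr1, which pairs with TLR2 to bind triacylated lipoproteins, had 27.3, 27.4 and 25.8 FPKM in allo-HSCT, against 20.6, 21.7 and 23.5 FPKM in syn-HSCT. Its groups did not overlap, with allo-HSCT higher by 1.22-fold (log2 difference 0.28, SE 0.076, limma adjusted p = 0.00611). The 2 partners of this receptor pair moved in opposite directions in these isolates, but Tlr1 lay near the median log2 difference of all tested genes (0.2).

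Receptors of endosomal nucleic acids were lower in the case of Tlr7, Tlr8 and Tlr13 and higher in the case of Tlr3. Tlr13, a mouse sensor of bacterial ribosomal RNA, had 5.72, 3.68 and 3.89 FPKM in allo-HSCT, against 9.22, 8.56 and 8.68 FPKM in syn-HSCT. Without overlap of the groups, it was 1.99-fold lower (log2 difference -0.87, SE 0.128, limma adjusted p = 0.000176). Tlr8, also a receptor of the TLR7 group, averaged 2.01 ± 0.407 FPKM in allo-HSCT and 4.66 ± 0.673 FPKM in syn-HSCT (SD, n = 3 each), 2.32-fold lower (limma adjusted p = 8.45e-05). Tlr7, a sensor of single-stranded RNA, had 4.05, 2.89 and 2.98 FPKM in allo-HSCT, against 4.69, 4.61 and 3.62 FPKM in syn-HSCT. Here the groups overlapped, and the call (log2 difference -0.31, limma adjusted p = 0.0345) was lost without allo-HSCT replicate 2 or 3 or syn-HSCT replicate 1 or 2 (limma adjusted p = 0.103 to 0.113). It was also lost with no filter on low values, with library medians set equal and with quantile normalization (limma adjusted p = 0.0669 to 0.1).

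Tlr3, the sensor of double-stranded RNA, stood at 1.17, 1.07 and 1.2 FPKM in allo-HSCT, against 0.541, 0.587 and 0.342 FPKM in syn-HSCT. It was 2.34-fold higher without overlap of the groups (log2 difference 0.53, limma adjusted p = 0.000301), from 292 reads in allo-HSCT and 124 reads in syn-HSCT. Tlr11 and Tlr12, mouse sensors of protozoan profilin, were both low and higher in allo-HSCT. Tlr11 had 1.88, 1 and 1.68 FPKM in allo-HSCT, against 0.833, 0.872 and 0.718 FPKM in syn-HSCT, 1.88-fold higher (limma adjusted p = 0.00623). Tlr12 had 1.64, 2.06 and 2.12 FPKM in allo-HSCT, against 1.61, 1.29 and 1.57 FPKM in syn-HSCT, with groups that barely did not overlap. Its call (1.3-fold higher, limma adjusted p = 0.0322) was lost without allo-HSCT replicate 2 or 3 or syn-HSCT replicate 2 (limma adjusted p = 0.0923 to 0.124) and with no filter (limma adjusted p = 0.0562). Neither Tlr11 nor Tlr12 had overlapping groups. Tlr5, the flagellin receptor, was too low to be tested, with 0.0193 to 0.0828 FPKM in allo-HSCT and 0.144 to 0.202 FPKM in syn-HSCT.

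Of 13 tested C-type lectins, 11 were lower, Clec2i was higher and Clec9a did not pass. Clec12a, an inhibitory receptor of myeloid cells, had 18.4, 11.5 and 12.5 FPKM in allo-HSCT, against 39.4, 38.6 and 38.7 FPKM in syn-HSCT. All allo-HSCT libraries lay below, with replicate 1 the highest of them, and Clec12a was 2.76-fold lower (log2 difference -1.43, SE 0.143, limma adjusted p = 1.49e-05). Clec7a (dectin-1), the receptor of fungal beta-glucan, had 7.81, 5.62 and 5.44 FPKM in allo-HSCT, against 35.3, 34.6 and 28.1 FPKM in syn-HSCT. It was 5.2-fold lower (log2 difference -2.22, SE 0.132, limma adjusted p = 4.67e-07). Clec4n (dectin-2), which binds fungal mannans, had 25.9, 18 and 17.3 FPKM in allo-HSCT, against 33.7, 29.4 and 23 FPKM in syn-HSCT. Its groups overlapped, and it was 1.41-fold lower (limma adjusted p = 0.0194). The call on Clec4n was lost without allo-HSCT replicate 2 or 3 or syn-HSCT replicate 1 or 2 (limma adjusted p = 0.0504 to 0.0807).

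Clec4e (Mincle) and Clec4d (MCL), partner receptors of mycobacterial glycolipid, fell more than Clec4n. Clec4e had 3.22, 2.57 and 2.4 FPKM in allo-HSCT, against 20.4, 21.5 and 20.1 FPKM in syn-HSCT, 7.58-fold lower (log2 difference -2.55, limma adjusted p = 3.6e-08). Every allo-HSCT library lay far below every syn-HSCT library in Clec4e. Clec4d averaged 1.72 ± 0.591 FPKM in allo-HSCT and 8.1 ± 0.612 FPKM in syn-HSCT (SD, n = 3 each), 4.7-fold lower. Clec5a, a DAP12-coupled receptor of myeloid cells, was 3.95-fold lower. Of the DCIR family, myeloid lectins that include the ITIM receptor gene Clec4a2, the 4 tested genes fell, while Clec4a4 and Clec4b2 were untested with overlapping groups. Clec4a2 had 12.8, 8.27 and 9.41 FPKM in allo-HSCT, against 27.7, 28.2 and 23 FPKM in syn-HSCT, 2.59-fold lower (limma adjusted p = 2.29e-05). Clec4a3 had 10.8, 6.67 and 6.91 FPKM in allo-HSCT, against 23.3, 22.7 and 20.9 FPKM in syn-HSCT, 2.75-fold lower (limma adjusted p = 2.23e-05). Clec4a1 had 14.5, 10.5 and 11.2 FPKM in allo-HSCT, against 23, 23.1 and 20.9 FPKM in syn-HSCT, 1.85-fold lower (limma adjusted p = 8.81e-05). In each of these genes every allo-HSCT library lay below every syn-HSCT library, and Clec4b1 was 2.54-fold lower. These Clec4 genes are close paralogs whose reads the counting could split, so their single values are uncertain.

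Clec2i, which encodes Clr-g, a ligand of NK cell lectin receptors, had 21.7, 17.3 and 18.5 FPKM in allo-HSCT, against 12.1, 13.1 and 12.8 FPKM in syn-HSCT. Its allo-HSCT libraries lay above every syn-HSCT library, and it was 1.51-fold higher (log2 difference 0.56, SE 0.0918, limma adjusted p = 0.00037). Clec9a, a receptor of cross-presenting dendritic cells for dead cells, averaged 3.89 ± 0.734 FPKM in allo-HSCT and 3.32 ± 0.235 FPKM in syn-HSCT (SD, n = 3 each) and did not pass (limma adjusted p = 0.157), although it did with quantile normalization (limma adjusted p = 0.0344). Of the 10 tested dendritic cell markers 7 were lower, Batf3 and Xcr1 higher and Cadm1 not called, and their part in the Clec9a values was not tested. Among them, Siglech, Cd209a, Tcf4 and Xcr1 reached 1 FPKM in 1 group only and had to differ. Clec1b (CLEC-2), a receptor of platelets, was 1.32-fold lower (limma adjusted p = 0.0233), a call lost without allo-HSCT replicate 2 or 3 or syn-HSCT replicate 1 or 3 (limma adjusted p = 0.0566 to 0.089) and with quantile normalization (limma adjusted p = 0.097). In the platelet list, 4 of 6 markers were in the table, 2 lower and 1 higher, with sums of 34.3 to 42.5 FPKM in allo-HSCT and 43.9 to 49.4 FPKM in syn-HSCT, and their part in the Clec1b difference was not tested. The 7 untested lectin genes (Clec11a, Clec3b, Clec2f, Clec4a4, Clec4b2, Clec4g and Clec2g) stayed at or below 1.23 FPKM in every library. Their groups did not overlap in Clec11a, Clec2f and Clec4g, lower in allo-HSCT, nor in Clec3b, higher there with 0.596 to 0.802 FPKM, against 0.0612 to 0.451 FPKM in syn-HSCT.

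All 4 genes matched as Fc receptors were lower, by unequal amounts. Fcgr2b, the inhibitory IgG receptor, had 8.95, 6.56 and 6.81 FPKM in allo-HSCT, against 29.9, 31.7 and 27.1 FPKM in syn-HSCT. The groups stood far apart, and Fcgr2b was 3.98-fold lower (log2 difference -1.87, SE 0.113, limma adjusted p = 4.96e-07). Fcgr3, an activating receptor of low affinity, had 19.6, 12.3 and 13.1 FPKM in allo-HSCT, against 22.6, 21.2 and 18.2 FPKM in syn-HSCT. Its groups overlapped, and its call (1.38-fold lower, limma adjusted p = 0.0171) was lost without allo-HSCT replicate 2 or 3 or syn-HSCT replicate 1 (limma adjusted p = 0.0544 to 0.0626). Fcgr1, the high-affinity activating receptor, had 6.49, 4.69 and 4.99 FPKM in allo-HSCT, against 7.25, 7.56 and 6.77 FPKM in syn-HSCT, 1.33-fold lower (limma adjusted p = 0.00909). Fcgrt, the neonatal Fc receptor that recycles IgG and albumin, had 34.7, 31.2 and 30 FPKM in allo-HSCT, against 51.3, 50 and 46.1 FPKM in syn-HSCT, 1.54-fold lower (limma adjusted p = 0.000107). Neither Fcgr1 nor Fcgrt had overlapping groups. Fcgr2b and Fcgr3 are similar in sequence over their extracellular parts, and how shared reads were assigned is not stated.

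PIR-B and the leukocyte immunoglobulin-like receptors regulate myeloid cells and bind MHC class I among other ligands. All 4 were lower. Lilrb4a, an ITIM receptor also known as gp49B, was the most abundant receptor gene of all, with 102, 81.7 and 85.8 FPKM in allo-HSCT, against 169, 173 and 171 FPKM in syn-HSCT. Its groups did not overlap, and it was 1.9-fold lower (log2 difference -0.92, SE 0.0923, limma adjusted p = 1.45e-05). Pirb had 15.9, 14.4 and 13.9 FPKM in allo-HSCT, against 24.7, 25.6 and 25.4 FPKM in syn-HSCT, 1.71-fold lower (limma adjusted p = 1.68e-05). Lilra6, a close relative of Pirb in sequence, had 1.19, 1.25 and 1.48 FPKM in allo-HSCT, against 6.74, 5.48 and 4.05 FPKM in syn-HSCT, 4.15-fold lower (limma adjusted p = 1.06e-05). None of these genes had overlapping groups. Lilra5 had 2.96, 2.89 and 2.81 FPKM in allo-HSCT, against 4.08, 4.24 and 3.72 FPKM in syn-HSCT, 1.39-fold lower (limma adjusted p = 0.00154). Pirb, Lilra6 and Lilrb4a have near-identical copies among which reads could be split, so their single values are uncertain.

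Siglecs bind sialic acids on cell surfaces. Siglece, an ITIM receptor of neutrophils and macrophages, had 11.1, 10.8 and 11 FPKM in allo-HSCT, against 18.7, 15.2 and 15.1 FPKM in syn-HSCT, 1.49-fold lower (limma adjusted p = 0.000501). Siglecg, an ITIM receptor best known from B cells, had 1.1, 1.08 and 1.18 FPKM in allo-HSCT, against 3.15, 3.71 and 3.58 FPKM in syn-HSCT, 3.11-fold lower (limma adjusted p = 1.78e-06). The summed level of the B cell markers was 18.3 to 19.5 FPKM in allo-HSCT and 12.1 to 13.6 FPKM in syn-HSCT, and their part in the Siglecg difference was not tested. Siglecf, a receptor of eosinophils and some macrophages, had 1.09, 0.858 and 1.04 FPKM in allo-HSCT, against 1.63, 1.39 and 1.41 FPKM in syn-HSCT, 1.48-fold lower (limma adjusted p = 0.00492). By contrast, Siglec1, the sialoadhesin of tissue macrophages, had 3.53, 3.7 and 3.42 FPKM in allo-HSCT, against 2.55, 2.5 and 2.04 FPKM in syn-HSCT. Siglec1 was 1.5-fold higher without overlap of the groups (log2 difference 0.44, limma adjusted p = 0.000984), where 7 of 9 monocyte and macrophage markers were lower.

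TREM receptors couple to DAP12 and tune inflammation in myeloid cells, and all 3 were lower, of which Trem2 reached 1 FPKM in syn-HSCT only and had to differ. Trem1, which amplifies inflammatory responses, had 2.95, 2.68 and 2.9 FPKM in allo-HSCT, against 11.8, 10.5 and 8.95 FPKM in syn-HSCT, 3.66-fold lower (log2 difference -1.56, limma adjusted p = 6.95e-07). Trem2, a lipid-binding receptor of macrophages, had 0.98, 0.662 and 0.695 FPKM in allo-HSCT, against 5.35, 4.88 and 5.69 FPKM in syn-HSCT, 6.81-fold lower (log2 difference -1.83, limma adjusted p = 1.73e-07). Trem3 had 6.48, 5.82 and 5.23 FPKM in allo-HSCT, against 15.8, 14.3 and 13.8 FPKM in syn-HSCT, 2.5-fold lower (log2 difference -1.19, limma adjusted p = 2.45e-06). In none of the 3 genes did the groups overlap.

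The CD300 family, lipid-binding receptors with activating and inhibitory members, had 7 tested genes. Cd300lg, Cd300lb, Cd300ld and Cd300c reached 1 FPKM in syn-HSCT only and had to differ, and the other 3 (Cd300c2, Cd300a and Cd300e) were lower as well. Cd300c2 had 16.4, 10.5 and 13.2 FPKM in allo-HSCT, against 24.6, 25.7 and 21.9 FPKM in syn-HSCT, 1.8-fold lower (limma adjusted p = 0.000356). Cd300a, the ITIM receptor for phosphatidylserine and phosphatidylethanolamine of dying cells, had 12.3, 10.3 and 11.1 FPKM in allo-HSCT, against 26.7, 27.4 and 23.1 FPKM in syn-HSCT, 2.29-fold lower (limma adjusted p = 3.69e-06). Cd300e had 3.95, 2.9 and 3.13 FPKM in allo-HSCT, against 6.28, 5.28 and 4.89 FPKM in syn-HSCT, 1.65-fold lower (limma adjusted p = 0.00093). In all 3 genes every allo-HSCT library lay below every syn-HSCT library. Among all tested receptor genes the largest ratio of means belonged to Cd300lg (nepmucin), known from endothelium, with 0.242, 0.239 and 0.183 FPKM in allo-HSCT, against 4.71, 4.12 and 4.53 FPKM in syn-HSCT. It was 20.1-fold lower (log2 difference -2.16, SE 0.0768, limma adjusted p = 3.15e-08) and rested on 30 reads in allo-HSCT and 592 reads in syn-HSCT. Cd300c was 9.68-fold lower on 9 reads in allo-HSCT and 85 in syn-HSCT, and Cd300lb was 3.6-fold and Cd300ld 3.18-fold lower. Genes of this family have close copies among which reads could be split. Cd300ld2, Cd300ld3 and Cd300ld4 were too low to be tested, and Cd300ld2 was listed at 0 in all syn-HSCT libraries.

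Of the NLRP sensors 2 were tested, Nlrp3 and Nlrp1b, of which Nlrp1b reached 1 FPKM in syn-HSCT only and had to differ. Nlrp3, the sensor of the best studied inflammasome, had 5.14, 5.5 and 4.4 FPKM in allo-HSCT, against 26.8, 26.1 and 24.3 FPKM in syn-HSCT. Every allo-HSCT library was far below, and Nlrp3 was 5.14-fold lower (log2 difference -2.16, SE 0.0888, limma adjusted p = 4.75e-08). Nlrp1b, the mouse sensor of anthrax lethal factor, had 0.364, 0.317 and 0.349 FPKM in allo-HSCT, against 2.18, 1.78 and 2.01 FPKM in syn-HSCT, 5.8-fold lower (limma adjusted p = 9.8e-07). Nlrp1a, its neighbouring paralog, was too low to be tested, with 61 reads in allo-HSCT and 31 in syn-HSCT and groups that did not overlap. Nlrp6, Nlrp10 and Nlrp12 were untested as well, with at most 40 reads per group. Without overlap of the groups, Nlrp6 was higher (0.142 to 0.179 FPKM in allo-HSCT and 0.0798 to 0.126 FPKM in syn-HSCT) and Nlrp10 lower (0.039 to 0.119 FPKM in allo-HSCT and 0.14 to 0.23 FPKM in syn-HSCT). Formyl peptide receptors, which guide phagocytes to bacterial peptides, moved in opposite directions. Fpr1 had 4.02, 3.88 and 3.52 FPKM in allo-HSCT, against 6.2, 5.91 and 4.35 FPKM in syn-HSCT, 1.44-fold lower (limma adjusted p = 0.0063). Fpr2 had 14.6, 10.6 and 11.3 FPKM in allo-HSCT, against 9.23, 10.4 and 8.73 FPKM in syn-HSCT, 1.28-fold higher (limma adjusted p = 0.0235). Its groups barely did not overlap, and its log2 difference of 0.32 lay near the median of all tested genes (0.2). The call on Fpr2 was lost without syn-HSCT replicate 1 (limma adjusted p = 0.0645) or replicate 3 (limma adjusted p = 0.087).

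**Figure D3:**
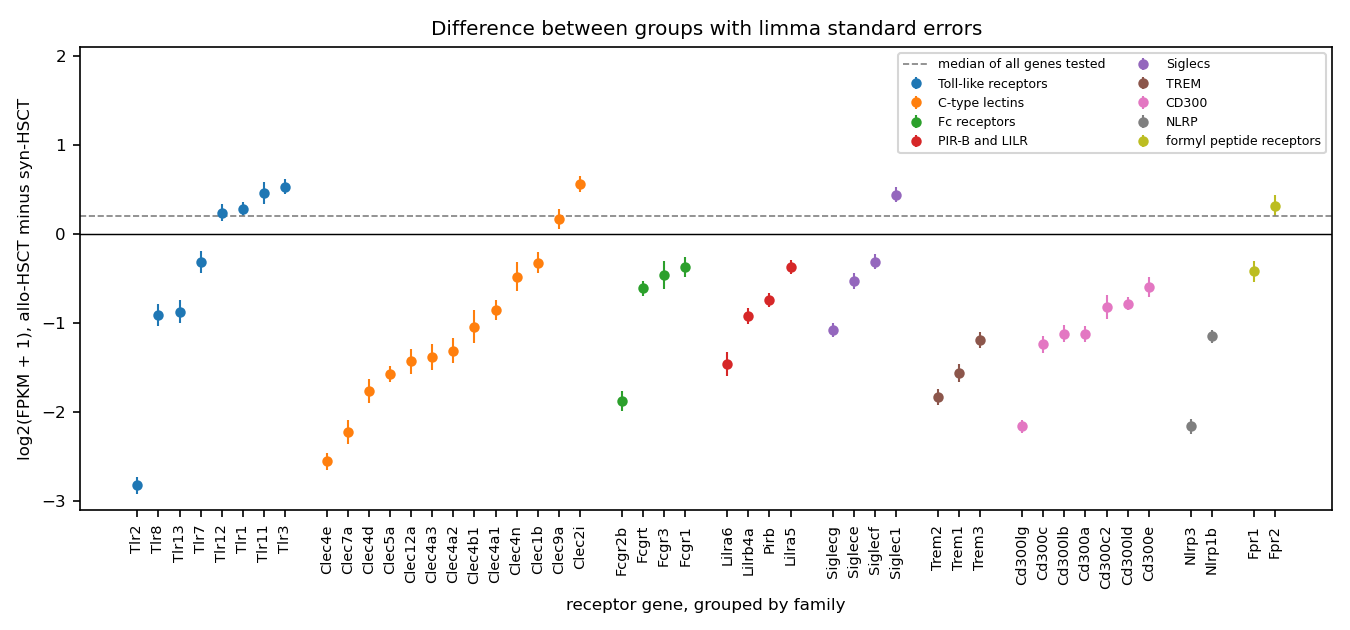
Difference of log2(FPKM + 1), allo-HSCT minus syn-HSCT, for each tested receptor gene, sorted within its family. Points are limma estimates from 3 libraries per group, bars their standard errors, and the dashed line is the median of all tested genes at 0.2; Tlr2 lies lowest at -2.82 and Clec2i highest at 0.56.

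Activating and inhibitory receptors were both mostly lower. Of 19 listed receptors with an ITAM adaptor or ITAM-like tail, 17 were in the table and tested, 16 were lower and none was higher, with a median log2 difference of -0.82. Of the 16, Trem2, Cd300lb and Cd300ld reached 1 FPKM in syn-HSCT only and had to differ. Of 13 listed ITIM receptors, 10 were in the table and 9 tested, all 9 lower, with a median of -1.08. Among all tested genes 45.8% were lower and 47.9% higher. Whether the ITAM and ITIM medians differ was not tested. By position (RefSeq, GRCm38.p6), all 62 genes were placed on 14 chromosomes. The 9 neighbouring Clec4 genes of chromosome 6, from Clec4a1 to Clec4e, held 7 tested genes, all lower, with log2 differences of -2.55 to -0.48. In another group of neighbours on chromosome 6, from Clec2i to Clec7a, 3 of 5 tested genes were lower and 1 higher, with log2 differences of -2.22 to 0.56. The 9 neighbouring CD300 genes of chromosome 11 held 6 tested genes, all lower, with log2 differences of -1.24 to -0.59, of which Cd300lb, Cd300ld and Cd300c had to differ.

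Ratios of related receptor genes within each library are given for 13 pairs that were chosen after their values were seen, so they are a description. Tlr2 over Tlr1 was 0.236, 0.179 and 0.199 in allo-HSCT, against 2.21, 2.04 and 1.87 in syn-HSCT. Fcgr2b over Fcgr3, an inhibitory over an activating IgG receptor, was 0.456, 0.534 and 0.519 in allo-HSCT, against 1.33, 1.5 and 1.49 in syn-HSCT. Clec4e over Clec4n was 0.124, 0.143 and 0.139 in allo-HSCT, against 0.607, 0.732 and 0.877 in syn-HSCT. Clec7a over Clec4n was 0.302 to 0.315 in allo-HSCT and 1.05 to 1.22 in syn-HSCT. In these lectin pairs every allo-HSCT ratio lay below every syn-HSCT ratio. Fpr1 over Fpr2 was 0.276 to 0.367 in allo-HSCT and 0.498 to 0.671 in syn-HSCT. Trem1 over Trem3 was 0.455 to 0.555 in allo-HSCT and 0.649 to 0.744 in syn-HSCT. Tlr8 over Tlr7 was 0.577 to 0.637 in allo-HSCT and 1.03 to 1.13 in syn-HSCT. In all 13 pairs the groups did not overlap. Among single tested genes, the groups did not overlap in 44.8% (lower in allo-HSCT) and 46.2% (higher). An exact two-sided permutation test of 3 against 3 libraries gave p = 0.1 for each pair (0.1 after Benjamini-Hochberg adjustment over 13). That is the smallest p this design allows. As the pairs were chosen with their values known, neither the count of 13 nor this p is a test of them.

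**Figure D4:**
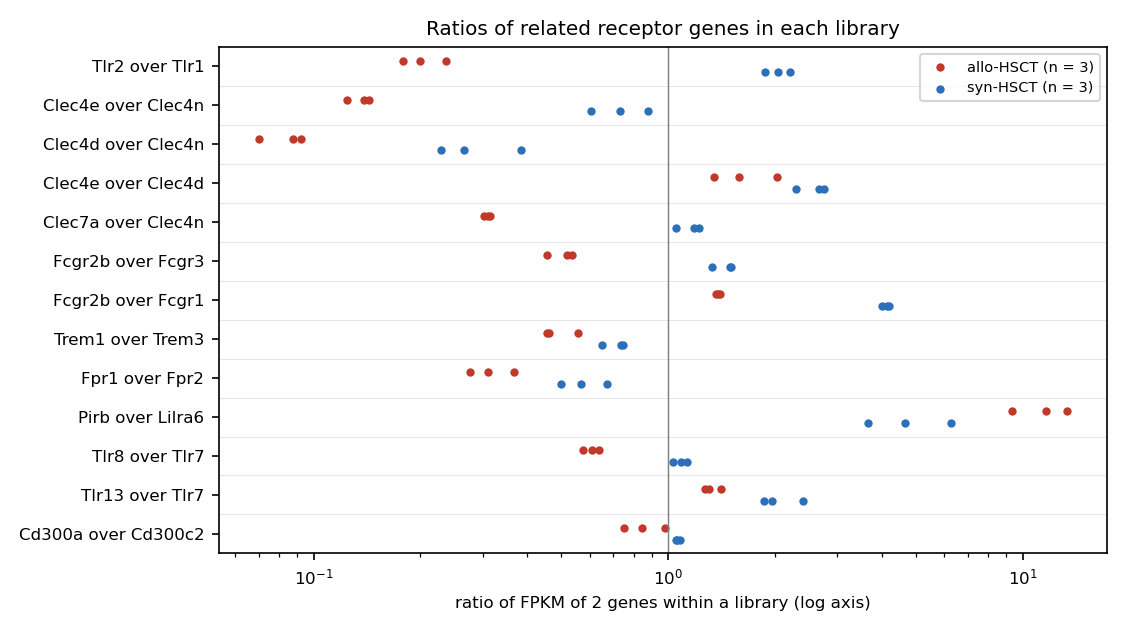
Ratio of the FPKM of 2 related receptor genes within each library, on a log axis, with 3 allo-HSCT libraries (red) above 3 syn-HSCT libraries (blue); the vertical line marks a ratio of 1. In all 13 rows the colours are separate, with Pirb over Lilra6 the 1 ratio that was higher in allo-HSCT.

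Of 25 co-receptors, chaperones and adaptors of Toll-like receptors, 14 were in the table and 13 tested, 10 lower and 3 higher. For this list and the next, the share over all tested genes was 45.8% lower and 47.9% higher. The lipopolysaccharide co-receptor gene Cd14 was 8.55-fold lower, Ly86, which encodes MD-1, 3.06-fold lower and Unc93b1, the chaperone of endosomal Toll-like receptors, 2.49-fold lower. The 3 that rose, picked out by their values, were the adaptor gene Myd88 (1.22-fold), Traf3 (1.41-fold) and Sigirr (1.58-fold). Of 17 ITAM adaptors and kinases, 15 were tested, 13 lower and 2 (Hcst and Malt1) higher. Tyrobp, which encodes DAP12, was 3.44-fold lower, Card9, the adaptor of C-type lectin signalling, 4.95-fold lower and Plcg2 3.02-fold lower. Of the ITIM phosphatases, only Ptpn11 was in the table, 1.64-fold higher in allo-HSCT.

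Of 18 inflammasome genes 13 were in the table and 11 tested, 8 lower and 3 higher, where 45.8% of all tested genes were lower and 47.9% higher. Of the 8, Nlrc4 (mean 0.771 FPKM in allo-HSCT, 1.81 FPKM in syn-HSCT) reached 1 FPKM in syn-HSCT only and had to differ. Mefv, which encodes pyrin, was 11-fold lower and Naip5, a flagellin sensor, 3.15-fold lower, while Txnip was 2.22-fold higher. The cytokine gene Il1b was 2.12-fold lower and the inflammasome adaptor gene Pycard 1.35-fold higher, both named after their values were seen. Other cytosolic sensors went mostly the other way: of 15, 9 were tested, 2 lower and 7 higher, where 47.9% of all tested genes were higher. Nlrc3 (1.97-fold) and Nlrc5, the transactivator of MHC class I genes (1.71-fold), were higher, and Cgas, the cytosolic DNA sensor, was 1.91-fold lower. Of 18 NF-kB and IRF factors and regulators, only 6 were in the table, 2 lower and 3 higher, a split near that of all tested genes. Irf5 was 2.11-fold lower, Nfkbie 1.3-fold lower and Ikbkg 1.58-fold higher.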

How the data were processed

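RNA of 6 isolates was sequenced after ribosomal RNA depletion, per the labels' protocols. Limma is in the submitters' processing notes, with no role given; for the aligner, counter, strand setting and genome build, the sources used here give nothing. The header names no unit. The deposited values were read as FPKM computed by the authors, because with annotated lengths (GENCODE M21) 137 of 1036 single-transcript genes gave whole reads within 0.01 in all 6 libraries and so the library totals. A read may stand for a pair. The fit used log2(FPKM + 1) of genes reaching 1 FPKM in at least 3 libraries, in limma 3.58.1 under R 4.3.3 with a mean-variance trend and no covariates, at a Benjamini-Hochberg adjusted p under 0.05 over all 5460. This scale understates changes of low genes; folds are ratios of mean FPKM. The procedure was run on simulated data in which few genes differed, unlike this table, so that run does not show how it performs here. Values in all libraries are given for the 4 tested genes of highest mean in each family and for those called against most of their family, with others added after their values were seen; 3 genes with the largest log2 difference are named per pathway list. Members, lists, pairs and motifs were chosen with earlier results of these data known. Alternatives were other pseudocounts, filters, scalings, sample weights, a replicate block and leaving out each library.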

Additional observations from a re-analysis of the deposited data

How the results depend on the processing

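Among values of single tested receptor genes under the alternatives, 562 kept their direction and side of the threshold, 25 lost the call, 1 (Clec9a) gained it and 0 reversed; the cause was not tested. With a mean of at least 5 FPKM, which leaves 24 receptor genes, 21 were lower and 3 higher. The median log2 difference (-0.874) was -0.996 with sample quality weights, -0.558 with no filter on low values and -1.0 with a pseudocount of 0.1. Leaving out a library in turn gave medians of -1.02 to -0.776, 35 to 39 genes lower, 6 to 7 higher, and 4657 to 5190 called genes of the table. Quantile normalization gave 37 lower and 8 higher, and library medians set equal 38 and 7. Replicate numbers of the 2 groups showed no pairing of the libraries: deviations of same-numbered libraries correlated at -0.022, -0.202 and 0.077. Libraries of different numbers correlated at -0.171 to 0.24. With 3 libraries per group such correlations cannot settle whether libraries were prepared in pairs. With a replicate block 39 receptor genes were lower and 7 higher, the median was -0.874 and 5105 genes of the table were called. The 15 untested receptor genes had 7 to 132 reads over all 6 libraries, which limits what their values can show.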
